A study of Mus musculus with 30 samples.

Results

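The expression of 10 genes for inflammatory and regulatory cytokines was measured by RNA-seq in mouse colon. The genes were the inflammatory cytokine genes Il1b, Tnf and Il6, the epithelial and stromal cytokine genes Il18, Il33, Il15 and Il7, and the regulatory cytokine genes Il10, Tgfb1 and Tgfb3. They were chosen by name, and 10 of 10 were found among the 46078 genes counted. Of these, 6 were abundant enough to be tested in every comparison, Il1b and Tnf only in some, and Il6 and Il10 in none.

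Cytokines are secreted proteins by which epithelial, stromal and immune cells of the gut wall signal to each other. IL-1β, TNF and IL-6 drive acute inflammation through NF-κB and STAT3, whereas IL-10 and the TGF-β family restrain immune cells and maintain tolerance to the gut contents. IL-18, IL-33, IL-15 and IL-7 are made largely by epithelial and stromal cells also in the resting gut, where IL-18 and IL-33 act as alarm signals and IL-15 and IL-7 keep lymphocytes alive.

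The mice were C57BL/6J, males and non-ovariectomized females of 5 to 6 weeks at the start, bred in house. They were fed a control diet (CD, 10% of the energy from fat) or a high fat diet (HFD, 60%) for 13 weeks. During the last 3 weeks all animals were injected 9 times i.p., with vehicle or, in 1 group of HFD males, with 17β-estradiol (E2) at 0.5 mg/kg body weight. The 5 groups were females and males on CD, females and males on HFD, and E2-treated HFD males (HFD+E2 males), with 6 libraries in each. E2 was compared in HFD males only. The methods of the study describe distal colon tissue and 6 biological replicates per group. In whole tissue, fewer cells of a type and less RNA per cell cannot be told apart.

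The counts on genes ranged from 8667177 to 17243712 per library, with a median of 11530915. All 12 marker genes of colon epithelium, such as Vil1, Slc26a3 and Muc2, had counts in every group, with a summed level of 3979 to 6837 TPM (the authors' values scaled to gene length and to an equal library total). Of the HFD libraries given vehicle, 6 also held markers of stratified squamous epithelium, a tissue that the colon itself lacks. These were replicates 1, 3, 4 and 5 of the HFD females and replicates 2 and 4 of the HFD males. The summed level of 15 such markers, among them keratin genes, was 225 to 1812 TPM in these 6 libraries and 63.7 to 152 TPM in the other 24. The summed level of 10 neutrophil markers was 23.6 to 306 TPM in the same 6 libraries and 0 to 4.69 TPM in the others. The effect of leaving these libraries out is given for some values of Il1b, Il18, Il33, Tgfb3 and Nos2. All other values of HFD animals given vehicle include them unless stated. Leaving them out keeps only replicates 2 and 6 of the HFD females and 4 of the HFD males given vehicle.

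Levels were compared between genes on the TPM scale. Il18 was the most abundant of the cytokine genes, with a median of 65.5 TPM and a range of 39.9 to 132 TPM over the 30 libraries. Il15 followed with a median of 21.1 TPM (12.3 to 33.9 TPM). Il18 lay above Il15 in 30 of 30 libraries, and Il15 above Tgfb3 in 30 of 30. The medians of Tgfb3, Il33 and Il7 were 4.38, 3.66 and 3.38 TPM. These neighbours did not separate, since Tgfb3 was above Il33 in 17 of 30 libraries and Il33 above Il7 in 18 of 30. Tgfb1 followed with a median of 1.70 TPM and was below Il7 in 29 of 30 libraries. Tnf (median 0.485 TPM) and Il1b (median 0.220 TPM) did not separate either, with Tnf the higher in 20 of 30 libraries. Il6 and Il10 had a median of 0 TPM. The order was thus led by the epithelial cytokines, and the inflammatory ones stood near the end of it.

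**Figure D1:**
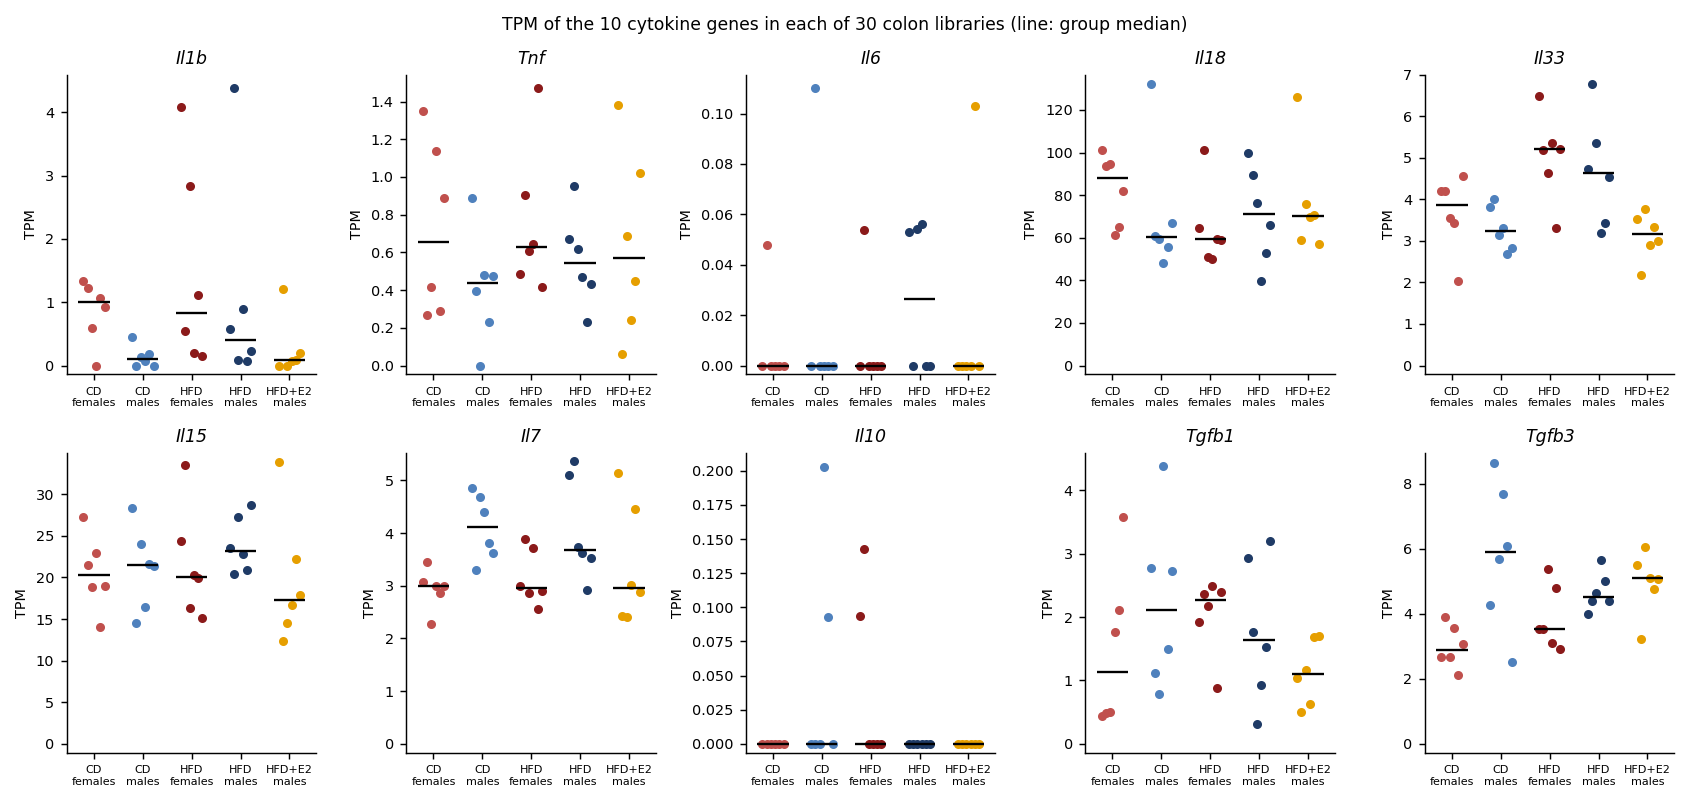
TPM (y axis, from 0 and scaled separately for each gene) of the 10 cytokine genes in each of the 30 colon libraries by group (x axis). Points are animals and lines are group medians. The 6 animals of a group overlap with those of the other groups in nearly every panel, Il1b reaches 4.09 and 4.38 TPM in 1 HFD female and 1 HFD male, and Il6 and Il10 lie at 0 in most animals.

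By counts, the median over the 30 libraries was 527 for Il18, 464 for Il15, 136 for Il7, 123 for Tgfb3, 80.5 for Il33 and 24.5 for Tgfb1. It was 8.0 for Tnf, 6.0 for Il1b and 0 for Il6 and Il10, and these 4 genes, with medians under 10 counts, were regarded as too low to compare reliably. Il6 had 0 to 2 counts per library and was without counts in 20 of 30 libraries, and Il10 had 0 to 3 counts and was without counts in 17 of 30. A library without counts allows a level of up to 3 counts, which is 0.174 CPM (counts scaled to the library total) in the deepest and 0.346 CPM in the shallowest library. Small differences of Il6 and Il10 between groups were therefore not detectable at this depth.

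The genes lie on different chromosomes (mm10, positions from the deposited files). Il1b (ENSMUSG00000027398) is on chromosome 2 from 129364570 to 129371139 on the minus strand. Tnf (ENSMUSG00000024401) is on chromosome 17 from 35199381 to 35202007 on the minus strand. Il18 (ENSMUSG00000039217) is on chromosome 9 from 50575273 to 50581837 on the plus strand. Il33 (ENSMUSG00000024810) is on chromosome 19 from 29925114 to 29960718 on the plus strand. Il7 (ENSMUSG00000040329) is on chromosome 3 from 7569994 to 7613760 on the minus strand. Tgfb3 (ENSMUSG00000021253) is on chromosome 12 from 86056744 to 86079041 on the minus strand. Il15 (ENSMUSG00000031712) is on chromosome 8, Tgfb1 (ENSMUSG00000002603) on chromosome 7, Il6 (ENSMUSG00000025746) on chromosome 5 and Il10 (ENSMUSG00000016529) on chromosome 1. The counts were taken over the exons of each gene. In the GENCODE annotation of this build, Il1b overlaps the antisense gene Il1bos, Il7 the antisense gene Gm16685 and Tgfb3 the gene Ttll5 on the opposite strand, and the strand setting of the counting is not given in the sources used here. Reads of these 3 genes and of their antisense partners may therefore not be fully separated.

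The design asks how sex, diet and E2 act on the colon transcriptome. Females were compared with males on CD and on HFD, HFD with CD in each sex, and, among HFD males, E2 with vehicle, using the 12 libraries concerned and edgeR's quasi-likelihood test. The 24 libraries of the vehicle-treated animals gave in addition the sex difference over both diets, the diet difference over both sexes and the interaction of sex and diet. These comparisons share libraries, HFD males for instance with E2 and with both diets, and are not independent of each other. A call required a Benjamini-Hochberg adjusted p-value under 0.05 over all genes tested. The threshold of the study itself was read as log2 fold changes beyond 0.4, up or down, at an unadjusted p-value under 0.05.

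None of the cytokine genes passed the adjusted threshold in any of the 8 edgeR comparisons. For sex on CD, 0 of 6 cytokine genes were called, where 2.92% of 14922 genes were, and 3 had an unadjusted p-value under 0.05 (14.8% of all genes). DESeq2 called 2 of the cytokine genes in that comparison, Tgfb3 and Il1b, and 2.80% of all genes. Between HFD females and HFD males, 0 of 6 were called (0.0988% of all genes) and 0 had an unadjusted p-value under 0.05 (5.09%). For HFD against CD in females, 0 of 7 were called (0.0199%) and 1 had an unadjusted p-value under 0.05 (5.68%). For HFD against CD in males, 0 of 6 were called (0% of all genes) and 0 had an unadjusted p-value under 0.05 (6.03%). For E2 against vehicle, 0 of 6 were called (0.00666%) and 0 had an unadjusted p-value under 0.05 (10.2%). DESeq2 called 0 cytokine genes in the last 4 comparisons, where it called 0.179%, 0.769%, 0.0939% and 0.139% of all genes in this order.

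Over both diets, 0 of 8 cytokine genes were called for sex (1.80% of all genes) and 4 had an unadjusted p-value under 0.05 (13.5%), whereas DESeq2 called Il7 alone (1.82% of all genes). Over both sexes, 0 of 8 were called for diet (0.418%) and 2 had an unadjusted p-value under 0.05 (5.90%). For the interaction of sex and diet, 0 of 8 were called (0% of all genes) and 0 had an unadjusted p-value under 0.05 (6.75%). DESeq2 called 0 cytokine genes in the last 2 comparisons, where it called 0.686% and 0.0236% of all genes. At the study's threshold, 1 of 6 genes passed for sex on CD (9.15% of all genes), 1 of 7 for diet in females (3.67%), 1 of 8 for diet over both sexes (2.71%) and 2 of 8 for sex over both diets (5.53%). None passed it for sex on HFD (3.09% of all genes), diet in males (2.90%), E2 (5.87%) or the interaction (5.18%). With 6 to 8 genes tested, these numbers are 0, 1 or 2 genes and are read as values of the genes themselves.

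**Figure D2:**
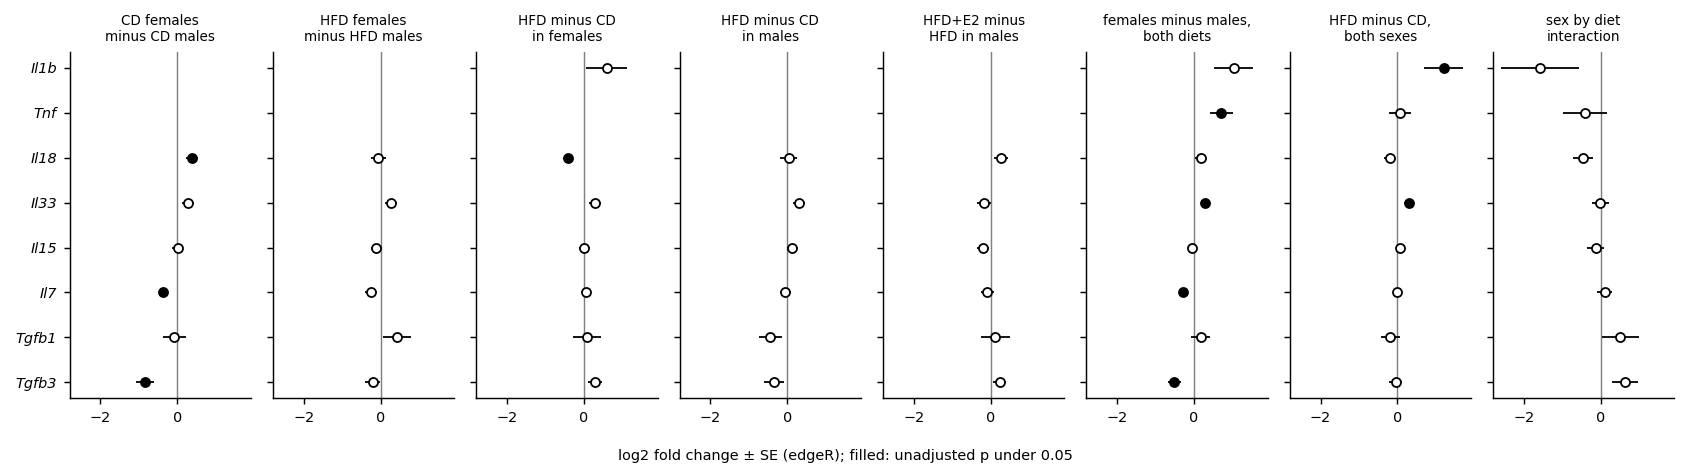
Log2 fold change (x axis) of each cytokine gene that could be tested (y axis) in the 8 comparisons, with its SE as a bar, from edgeR. Filled points have an unadjusted p-value under 0.05, and none passed the adjusted threshold. Most points lie within 0.5 of 0, and the bars of Il1b and Tnf, the genes with the fewest counts, are the widest.

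Il1b encodes IL-1β, a cytokine of activated myeloid cells that is released after cleavage by caspase-1. CD females had 5 to 16 counts (median 11.5) and CD males 0 to 7 counts (median 2.50). In TPM, CD females ranged from 0 to 1.33 with a median of 1.0, and CD males from 0 to 0.455 with a median of 0.110. The CD female listed at 0 TPM had 5 counts, so that the groups overlapped in counts and in TPM. Scaled for depth as log2 CPM, each CD female was above each CD male, in 36 of 36 pairs, with the lowest female at -0.54 and the highest male at -0.59. Over all genes tested in this comparison, 0.690% were higher in females without overlap. Il1b failed the filter on low counts here, but the difference of the mean log2 CPM was 1.68 (two-sided exact permutation test, p = 0.00216, the smallest p-value that 6 against 6 can give). DESeq2, run without this filter, gave a log2 fold change of 2.07 (SE 0.55, adjusted p = 0.00800), and edgeR without the filter gave 1.99 (SE 0.50, adjusted p = 0.0285). With all 30 libraries in 1 edgeR fit it was 2.0 (SE 0.78, adjusted p = 0.231), which did not pass.

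On HFD, females had 3 to 44 Il1b counts (median 10.5) and males 3 to 41 counts (median 6.50). The levels were 0.154 to 4.09 TPM (median 0.831) in HFD females and 0.0710 to 4.38 TPM (median 0.409) in HFD males, and both groups spanned the whole range. HFD+E2 males had 1 to 13 counts (median 3.0), or 0 to 1.21 TPM (median 0.0816). The vehicle-treated HFD libraries with over 7 counts were all among those with squamous epithelium. In the 6 squamous libraries Il1b had 5 to 44 counts (median 23.5), and in the other 6 vehicle-treated HFD libraries 3 to 7 counts (median 4.50).

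Over both sexes, the log2 fold change of Il1b for HFD against CD was 1.20 (SE 0.50, edgeR unadjusted p = 0.0245, adjusted p = 0.685), and the study listed the gene among those it found changed in HFD males. Without the 6 libraries with squamous epithelium, the value was -0.15 (SE 0.49, unadjusted p = 0.770), and with the squamous score as a covariate -0.20 (SE 0.55, unadjusted p = 0.724). The first of these 2 fits kept only replicates 2 and 6 of the HFD females. Leaving out replicate 2 of the HFD males alone gave 0.77 (unadjusted p = 0.0783). In males, HFD exceeded CD by 1.39 in mean log2 CPM (two-sided exact permutation test, p = 0.0390, higher in 32 of 36 pairs). With the 4 HFD males without squamous epithelium, the difference was 0.71 (two-sided exact permutation test, p = 0.181, higher in 20 of 24 pairs). The neutrophil markers were high in the same libraries as the squamous markers, and the part of either tissue in the Il1b values was not tested.

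**Figure D3:**
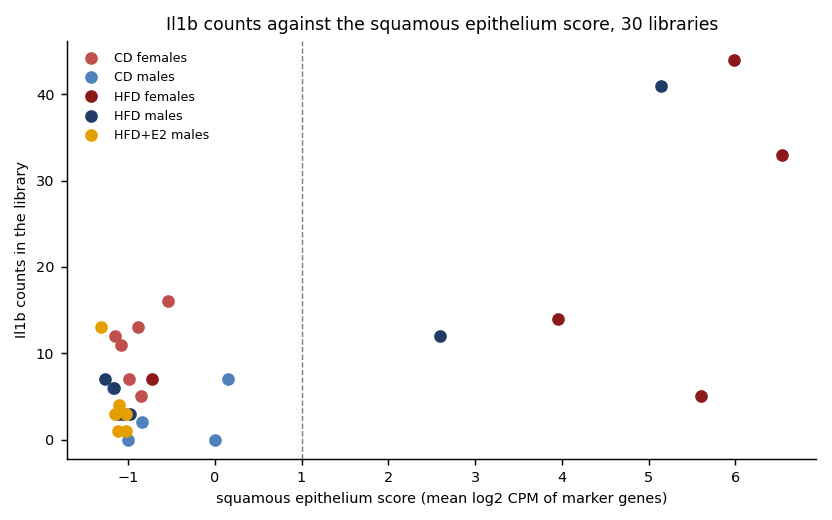
Il1b counts (y axis) against the squamous epithelium score (x axis, mean log2 CPM of the marker genes) in the 30 libraries, coloured by group. The dashed line is the score of 1 above which a library was taken to hold squamous epithelium. The 6 libraries to its right have 5 to 44 counts and the 24 to its left 0 to 16, where the highest are 4 CD females and 1 HFD+E2 male.

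The interaction of sex and diet for Il1b was -1.58 (SE 1.01, edgeR unadjusted p = 0.130). It was -1.96 (SE 0.91, unadjusted p = 0.0423, adjusted p = 1.0) without the 6 squamous libraries. The latter fit kept only replicates 2 and 6 of the HFD females, with 7 and 3 Il1b counts. The sex difference over both diets was 1.03 (SE 0.50, edgeR unadjusted p = 0.0506, adjusted p = 0.371). It was called without replicate 2 of the HFD males, the male with the most counts, at 1.68 (edgeR adjusted p = 0.0415). That library holds squamous epithelium, and the squamous libraries of the HFD females were kept in this fit. Without all 6 squamous libraries, the sex difference of Il1b was not called. Between HFD+E2 and HFD males, the mean log2 CPM differed by -1.0 (two-sided exact permutation test, p = 0.152), and by -0.32 without the squamous libraries (p = 0.567, exact permutation test).

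Tnf encodes tumour necrosis factor, which activates NF-κB in epithelial and immune cells. CD females had 0.270 to 1.35 TPM (median 0.653) and CD males 0 to 0.887 TPM (median 0.437). HFD females had 0.415 to 1.47 TPM (median 0.626), HFD males 0.229 to 0.951 TPM (median 0.545) and HFD+E2 males 0.0633 to 1.38 TPM (median 0.569). All groups overlapped. Tnf had 2 to 20 counts per library and passed the filter on low counts only with the 24 vehicle libraries, where the sex difference was 0.71 (SE 0.29, edgeR unadjusted p = 0.0205, adjusted p = 0.242) and the diet difference 0.07 (SE 0.28). The exact permutation test of log2 CPM gave p = 0.0887 for sex on CD, with a difference of 0.75, and p = 0.219 for sex on HFD, with a difference of 0.36. The E2 difference was 0.37 (two-sided exact permutation test, p = 0.260).

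Il6, which encodes a cytokine of the acute phase response, summed to 3 counts over the 6 CD females, 2 over the CD males, 2 over the HFD females, 4 over the HFD males and 2 over the HFD+E2 males. No fold change could be fitted. The smallest p-value of the exact permutation test of log2 CPM was 0.318, for sex on HFD.

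Il18 encodes a cytokine that the colon epithelium stores as a precursor and that caspase-1 activates. CD females had 61.4 to 101 TPM with a median of 87.8 TPM. CD males had 48.1 to 132 TPM with a median of 60.1 TPM. Replicate 1 stood at 132 TPM, whereas the other 5 CD males lay at or below 67.1 TPM. HFD females had 50.1 to 101 TPM (median 59.2), HFD males 39.9 to 99.7 TPM (median 71.1) and HFD+E2 males 56.9 to 126 TPM (median 70.2). The lowest median was thus that of HFD females and the highest that of CD females.

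Il18 was lower in HFD than in CD females, at 64.3 ± 19.1 against 83.0 ± 16.5 TPM (SD, n = 6), with a log2 fold change of -0.43 (SE 0.13, edgeR unadjusted p = 0.00534, adjusted p = 0.527). On log2 CPM the difference was -0.47 (two-sided exact permutation test, p = 0.0152), and HFD females were the higher in 4 of 36 pairs. The study named Il18 in its list of genes changed by HFD in females, on the same samples. The difference was -0.13 (SE 0.16, edgeR unadjusted p = 0.421) without the 4 HFD females with squamous epithelium. That fit kept only replicates 2 and 6 of the HFD females, and replicate 2 had the most Il18, at 101 TPM. With the squamous score as a covariate the difference was -0.12 (SE 0.15, edgeR unadjusted p = 0.416). The score was 3.95 to 6.54 in the same 4 HFD females and -1.15 to -0.54 in CD females. The covariate fit is therefore not a separate check. With only replicate 2 of the HFD females left out, the difference was -0.56. In males the same contrast gave 0.03 (SE 0.21), and the interaction of sex and diet was -0.46 (SE 0.27, unadjusted p = 0.0980).

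Between the sexes on CD, Il18 was higher in females by a log2 fold change of 0.39 (SE 0.16, edgeR unadjusted p = 0.0297, adjusted p = 0.261). Without replicate 1 of the CD males the difference was 0.60 and passed the adjusted threshold (edgeR adjusted p = 0.00455), whereas its unadjusted p-value was above 0.05 in 7 of the other 11 fits that left out a library. With the smooth muscle score as a covariate the difference was -0.01 (edgeR unadjusted p = 0.944). The median of this score was 8.87 in CD females and 9.62 in CD males, so the fit cannot fully separate muscle content from sex.

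Il33 encodes an alarm cytokine of stromal, endothelial and epithelial nuclei. CD females had 2.03 to 4.56 TPM (median 3.87) and CD males 2.68 to 4.0 TPM (median 3.23). HFD females had 3.32 to 6.50 TPM (median 5.21), HFD males 3.20 to 6.77 TPM (median 4.64) and HFD+E2 males 2.17 to 3.77 TPM (median 3.17). The HFD groups given vehicle had the highest medians, but each overlapped with its CD group. Over both sexes, the log2 fold change for HFD against CD was 0.29 (SE 0.11, edgeR unadjusted p = 0.0127, adjusted p = 0.518), with 0.29 in females and 0.30 in males. Without the squamous libraries it was 0.24 (SE 0.13, unadjusted p = 0.0747). Over both diets, Il33 was higher in females by 0.28 (SE 0.11, unadjusted p = 0.0161, adjusted p = 0.218), with 0.28 on CD and 0.27 on HFD.

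For E2, the values of Il33 depended on the scale. In TPM, HFD+E2 males had 3.12 ± 0.566 and HFD males 4.67 ± 1.32 (SD, n = 6), and on log2(TPM + 0.1) the difference was -0.54 (SE 0.21, limma unadjusted p = 0.0229, adjusted p = 0.504). On the counts, the log2 fold change was -0.18 (SE 0.18, edgeR unadjusted p = 0.332). The median of all genes was shifted by -0.16 between these groups on log2(TPM + 0.1), by -0.10 between the sexes on CD, and by 0.09 or less in size in the others, against 0.01 or less on the counts after TMM normalization. Fold changes are therefore given from the counts.

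Il15 encodes a survival factor of intraepithelial lymphocytes and natural killer cells. Its group medians were 20.2 TPM in CD females, 21.5 in CD males, 20.1 in HFD females, 23.1 in HFD males and 17.3 in HFD+E2 males. Single libraries ranged from 12.3 to 33.9 TPM, both of these in HFD+E2 males. Its log2 fold changes in the 5 comparisons of 2 groups were 0.01 for sex on CD, -0.12 for sex on HFD, 0.01 for diet in females, 0.13 for diet in males and -0.20 for E2, with SEs of 0.14 to 0.16. All of these were within the spread between animals.

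Il7 encodes the cytokine that maintains T cells and innate lymphoid cells. CD females had 2.28 to 3.45 TPM (median 3.0) and CD males 3.30 to 4.85 TPM (median 4.11). HFD females had 2.56 to 3.89 TPM (median 2.95), HFD males 2.92 to 5.37 TPM (median 3.68) and HFD+E2 males 2.40 to 5.15 TPM (median 2.95). The medians of females were below those of males on either diet, and the groups overlapped. On CD the log2 fold change was -0.36 (SE 0.12, edgeR unadjusted p = 0.0108, adjusted p = 0.155), with females the higher in 3 of 36 pairs. On HFD it was -0.25 (SE 0.15, unadjusted p = 0.102). Over both diets it was -0.30 (SE 0.09, unadjusted p = 0.00258, adjusted p = 0.0869), the lowest adjusted p-value of the cytokine genes in that comparison. The edgeR difference over both diets passed the adjusted threshold without replicate 6 of the HFD males (-0.34, adjusted p = 0.0379) and with the smooth muscle score as a covariate (-0.36, adjusted p = 0.0414), and DESeq2 gave -0.31 (adjusted p = 0.0388). Diet moved Il7 by 0.06 in females and -0.05 in males, and E2 by -0.09, all within the spread between animals.

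Il10, which encodes the main suppressor of macrophage activation in the gut, summed to 2 counts over the CD females, 5 over the CD males, 8 over the HFD females, 2 over the HFD males and 3 over the HFD+E2 males. No fold change could be fitted. The smallest p-value of the exact permutation test of log2 CPM was 0.0887, for sex on HFD, with females the higher in 27 of 36 pairs.

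Tgfb1 encodes TGF-β1, which induces regulatory T cells and class switching to IgA. Its medians were 1.13 TPM in CD females (0.442 to 3.58), 2.11 in CD males (0.791 to 4.39), 2.27 in HFD females (0.882 to 2.49), 1.64 in HFD males (0.308 to 3.20) and 1.10 in HFD+E2 males (0.507 to 1.71). With 7 to 47 counts per library, the SEs of its log2 fold changes between 2 groups were 0.30 to 0.37. The largest of the 5 differences between 2 groups was that of HFD against CD in males, at -0.45 (SE 0.30, edgeR unadjusted p = 0.156). The others were -0.08 for sex on CD, 0.43 for sex on HFD, 0.07 for diet in females and 0.12 for E2. The gaps between the TPM medians for sex on CD and for diet in females were thus not matched on the counts. For E2 the TPM medians went the other way.

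Tgfb3 encodes TGF-β3, an isoform needed for closure of the palate and active in wound repair. CD females had 70 to 120 counts, or 2.12 to 3.91 TPM with a median of 2.87 TPM. CD males had 66 to 249 counts, or 2.50 to 8.62 TPM with a median of 5.88 TPM. In TPM, 5 of the CD males lay above every CD female, and replicate 6 of the CD males, at 2.50 TPM, was among the lowest of both groups. HFD females had 2.91 to 5.36 TPM (median 3.53), HFD males 3.98 to 5.64 TPM (median 4.52) and HFD+E2 males 3.21 to 6.06 TPM (median 5.09).

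Between the sexes on CD, the log2 fold change of Tgfb3 was -0.84 (SE 0.24, edgeR unadjusted p = 0.00351, adjusted p = 0.0809), at 3.0 ± 0.653 against 5.81 ± 2.22 TPM (SD, n = 6). The two-sided exact permutation test of log2 CPM gave p = 0.0390 with a difference of -0.73. It was the cytokine gene closest to the adjusted threshold there, and it passed with DESeq2 (-0.84, adjusted p = 0.0239), with all 30 libraries in 1 fit (-0.84, adjusted p = 0.0307), on leaving out replicate 6 of the CD males (-1.0, adjusted p = 0.0104) or their replicate 1 (-0.95, adjusted p = 0.0324). On HFD the sex difference was -0.21 (SE 0.19, unadjusted p = 0.295), and over both diets -0.52 (SE 0.17, unadjusted p = 0.00530, adjusted p = 0.130). Without the 6 squamous libraries, the difference over both diets was -0.72 (SE 0.19, edgeR adjusted p = 0.0475). The interaction of sex and diet was 0.63 (SE 0.33, unadjusted p = 0.0655), so that the sex differences on the 2 diets were not shown to differ.

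All 10 smooth muscle markers, such as Actg2 and Acta2, were lower in CD females than in CD males at the study's threshold, and 6 of 10 passed the adjusted threshold. Their summed level was 2635 to 4089 TPM in CD females and 4147 to 6888 TPM in CD males, without overlap. Of 10 markers of fibroblasts and stroma, 6 were lower at the study's threshold. Of all genes, 6.21% were lower at that threshold and 2.92% passed the adjusted one in either direction. With the smooth muscle score as a covariate, the log2 fold change of Tgfb3 for sex on CD was -0.05 (SE 0.32, edgeR unadjusted p = 0.867) and over both diets -0.11 (unadjusted p = 0.439). The score was 8.50 to 9.21 in CD females and 8.96 to 9.73 in CD males, so these fits cannot fully separate muscle content from sex. The part of muscle in the Tgfb3 difference was not tested.

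Between animals of 1 group, Tgfb3 and the smooth muscle score also moved together. With the group means removed, Pearson's r was 0.63 over 30 libraries (permutation p = 0.000860, adjusted p = 0.0648) and Spearman's rho 0.67 (permutation p = 0.000380, adjusted p = 0.0304). The r was 0.66 without the 2 libraries farthest from the median score, and positive in 5 of 5 groups, from 0.03 to 0.83. Il18 went the other way, with r of -0.61 (permutation p = 0.00162, adjusted p = 0.0648) and rho of -0.48 (permutation p = 0.0149, adjusted p = 0.265). It was -0.62 without the 2 farthest libraries and negative in 5 of 5 groups, from -0.84 to -0.13. With the fibroblast and stroma score, Tgfb3 had an r of 0.57 and a rho of 0.51, positive in 5 of 5 groups, and Il18 an r of -0.54 and a rho of -0.48, negative in 5 of 5 (adjusted permutation p of the r = 0.124 and 0.188). These 4 were the strongest by r and by rho of 80 relations, of 8 cytokine genes with the scores of 10 marker lists. The neutrophil and squamous marker lists were not among the 10, so that the relation of Il1b to them was not ranked. The values of both sides come from the same libraries. The Tgfb3 rho was the only value under 0.05 after adjustment over the 80.

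**Figure D4:**
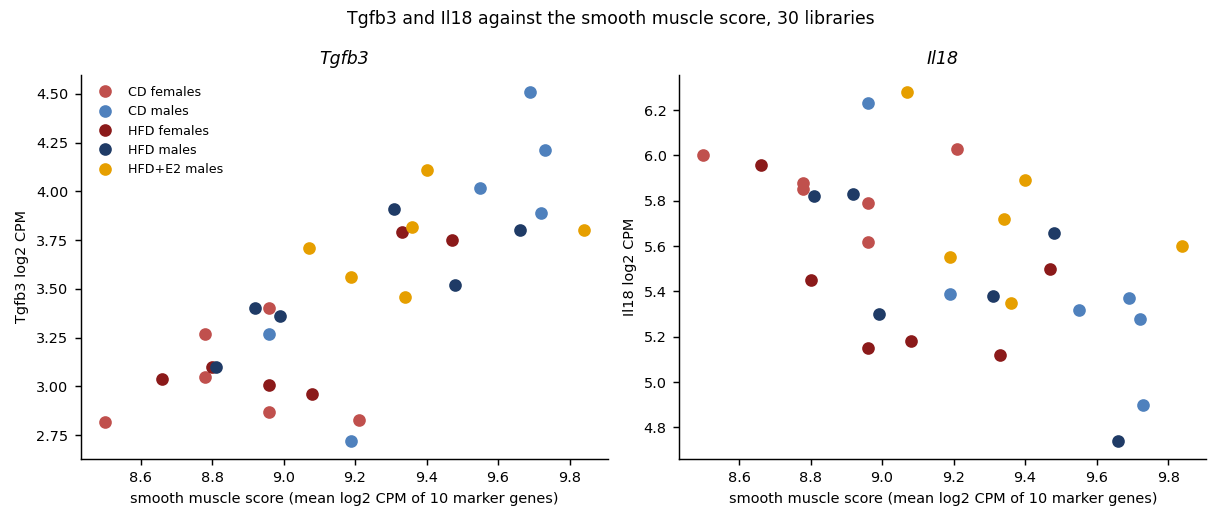
Log2 CPM of Tgfb3 (left) and Il18 (right) on the y axis against the smooth muscle score (x axis, mean log2 CPM of 10 marker genes) in the 30 libraries, coloured by group. Tgfb3 is higher and Il18 lower in libraries with a higher score, and most CD males lie at the high end of the score and the CD females toward the low end.

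All 20 receptor genes of these cytokines had medians of 10 counts or more. The shared signal transducer Il6st led with a median of 39.8 TPM, followed by Tgfbr2 at 33.0 TPM and Il10rb at 28.8 TPM. The lymphocyte receptors Il7r, Il2rb and Il18rap were near the end, at 0.558, 0.372 and 0.196 TPM. Il10rb was thus well measured where Il10 was not.

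On CD, 2 of 19 receptor genes tested were lower in females by the adjusted threshold and 0 were higher, where 2.92% of all genes were called in either direction. These were Tgfbr3, the TGF-β co-receptor betaglycan, at a log2 fold change of -0.58 (SE 0.13, edgeR adjusted p = 0.0180) and Acvrl1, a type I receptor of endothelium, at -0.66 (SE 0.15, adjusted p = 0.0240). Of 10 endothelium markers, 5 were lower in CD females at the study's threshold, where 6.21% of all genes were. By the adjusted threshold 2 were lower, Lyve1 (-0.58, SE 0.13) and Cdh5 (-0.63, SE 0.15). The part of endothelium in the receptor values was not tested. The interaction of sex and diet for Acvrl1 was 0.62 (SE 0.22, edgeR unadjusted p = 0.00998, adjusted p = 0.630). The median over the 19 receptor genes was -0.00, and 0.01 over all genes. Over both diets Tgfbr3 was lower in females by -0.43 (SE 0.09, edgeR adjusted p = 0.00818) and no other receptor gene passed. The remaining comparisons had 0 calls among 19 or 20 receptor genes. At the study's threshold, Il18rap (0.89) and Il7r (0.84) were higher in HFD females than in HFD males, and Il2rb (0.99) was higher in HFD than in CD males. The same threshold was passed by Il7r (0.60) for diet in females, by Il18r1 (0.60) for diet over both sexes and by Tnfrsf1a (0.42) for the interaction. For sex over both diets 3 receptor genes were higher in females, Il18rap (0.63), Il2rg (0.76) and Il7r (0.53), where 5.53% of all genes passed in either direction. For E2, 0 of 19 passed (5.87% of all genes).

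Genes that process, release or inhibit these cytokines were 18, of which 16 were tested. Casp1, the protease that matures IL-1β and IL-18, had a median of 68.6 TPM, and the pore protein gene Gsdmd 64.3 TPM. Il1rn, which encodes the IL-1 receptor antagonist, had a median of 33.8 TPM, and Il18bp, which encodes the soluble inhibitor of IL-18, 4.42 TPM. The inflammasome sensor gene Nlrp6 had 23.3 TPM and Nlrp3 0.103 TPM. No gene of the list was called by edgeR in any of the 8 comparisons. At the study's threshold, 1 gene passed for sex on CD, Skil at 0.43 (SE 0.12), and 1 for the interaction of sex and diet, again Skil, at -0.50 (SE 0.19, unadjusted p = 0.0131). For E2 1 passed, Nlrp6 at 0.55 (SE 0.15, edgeR unadjusted p = 0.00157, adjusted p = 0.452), and in the other 5 comparisons 0 passed. Of all genes, 9.15% passed for sex on CD, 5.18% for the interaction and 5.87% for E2.

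TGF-β is secreted in a latent form that integrins, thrombospondin and matrix proteins release or hold. All 12 genes of this list were tested and none was called by edgeR in any of the 8 comparisons. On CD, Fbn1, a matrix protein gene, was -0.68 (SE 0.18, edgeR adjusted p = 0.0580) in females against males, and Itgb8, an activating integrin gene, 0.79 (SE 0.23, adjusted p = 0.0861). With HFD in females, 3 of 12 genes passed the study's threshold, where 3.67% of all genes did. These were Itgb8 at -0.50 (SE 0.16, edgeR unadjusted p = 0.00558), the thrombospondin-1 gene Thbs1 at -0.46 (SE 0.16) and the latent TGF-β binding protein gene Ltbp2 at 1.02 (SE 0.47). With HFD in males, Thbs1 alone passed, at -0.79 (SE 0.23), where 2.90% of all genes did. Over both sexes Thbs1 was -0.62 (SE 0.15, edgeR unadjusted p = 0.000286, adjusted p = 0.0585). With E2, Thbs1 was 0.51 (SE 0.13, unadjusted p = 0.00127, adjusted p = 0.434) and Itgb8 -0.59 (SE 0.19, unadjusted p = 0.00531, adjusted p = 0.454), in a comparison that shares the HFD males with the diet comparison.

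Of 12 genes that respond to TGF-β, such as Fn1 and Smad7, 1 was called for sex on CD, Fn1, which encodes fibronectin, at -0.72 (SE 0.18, edgeR adjusted p = 0.0413). In this comparison 1 passed the study's threshold upward (2.94% of all genes did) and 3 downward (6.21%), with a median of -0.09 against 0.01 for all genes. Over both diets Ctgf, a connective tissue growth factor gene, was lower in females at -0.43 (SE 0.10, adjusted p = 0.0224). Fn1 was -0.54 (SE 0.14, unadjusted p = 0.00162) with HFD in males and 0.50 (SE 0.13, unadjusted p = 0.00117) with E2 in HFD males, neither of which was called. With HFD in females it was 0.18 (SE 0.16), and the interaction of sex and diet was 0.72 (SE 0.22, unadjusted p = 0.00358, adjusted p = 0.581). At the study's threshold, 3 of 12 genes were higher with HFD in females, led by Col1a1 at 0.78 (SE 0.29). Of all genes, 3.67% passed there in either direction. Among the 3 was Ltbp2 (1.02), which is also counted in the list of TGF-β latency above. In the interaction 4 passed upward and 1 downward, where 5.18% of all genes passed. The downward gene was Skil, also the upward gene for sex on CD, and Skil is counted in the processing list above as well. Fn1 and Col1a1 are products of stromal cells as well, whose markers are given above.

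Of 21 genes that respond to TNF, IL-1 or IL-6, 13 to 15 were tested and 8 had medians under 10 counts, among them Cxcl1, Cxcl2, Ccl2, Lcn2 and Reg3g. Saa1, an acute phase gene of epithelium, was the most abundant with a median of 668 TPM. It was the only one called, higher in CD females than in CD males at a log2 fold change of 0.54 (SE 0.14, edgeR adjusted p = 0.0466). At the study's threshold, 4 of 13 were higher in CD females (2.94% of all genes were) and 0 lower (6.21%), with a median of 0.28 against 0.01 for all genes. Ccl20, which encodes a chemokine for B cells and dendritic cells, was the largest of the named ones at 1.32 (SE 0.38, unadjusted p = 0.00300, adjusted p = 0.0734), followed by Icam1 at 0.56 (SE 0.21). B cell markers were also higher in CD females, 5 of 10 at the study's threshold and 0 of 10 by the adjusted one, with summed levels of 15.3 to 72.6 TPM against 1.75 to 55.4 TPM in CD males, and their part in these values was not tested. With HFD in females, Nos2, which with a median of 8.5 counts is among those too low to compare reliably, was 1.40 (SE 0.45, unadjusted p = 0.00665). It was 0.28 (SE 0.65, edgeR unadjusted p = 0.676) without the 4 HFD females with squamous epithelium, a fit that kept only replicates 2 and 6 of the HFD females. With E2, Ptgs2, which encodes cyclooxygenase-2, was -0.80 (SE 0.18, unadjusted p = 0.000257, adjusted p = 0.389), Saa1 0.53 (SE 0.20) and Bcl3 0.63 (SE 0.27).

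Beyond these, 37 other cytokine genes were examined, and 30 of them had medians under 10 counts, among them Ifng, Il17a, Il22, Il4 and Il13. The 7 measured ones were led by Il34 (median 5.96 TPM) and Csf1 (median 4.30 TPM), both macrophage growth factor genes. None was called in any comparison. On CD, Csf1 was -0.42 (SE 0.13, edgeR adjusted p = 0.0877) and Tgfb2 -0.55 (SE 0.21, adjusted p = 0.216) in females against males.

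The genes whose levels followed each cytokine most closely between animals of a group were found by the Pearson correlation of log2 CPM over 30 libraries, after removal of the group means, among 16060 genes. For Il18 they were B3galt5 (r = 0.86), Slc44a1 (0.85) and Naip1 (0.85). For Il15 they were Lnx1 (0.85), Smim14 (0.80) and Trim23 (0.79). For Il7 they were Hook1 (0.81), Sh2d4a (0.79) and Tax1bp1 (0.79). For Tgfb3 they were Fkbpl (0.77), Tnc (0.75) and Rftn2 (0.72). For Il33 they were Eif4a-ps4 (0.72), Car15 (0.70) and Vldlr (0.70), a weaker likeness than that of Il18 or Il15. These values describe the libraries, which differ in tissue composition and depth.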

How the data were processed

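Colon RNA of 30 animals was sequenced from stranded total RNA libraries depleted of ribosomal RNA. Per the labels and the study's methods, the authors mapped paired-end reads to the mouse genome (mm10) with STAR and deposited raw counts per gene from featureCounts, together with TPM from StringTie. Versions of these tools are not given in the sources used here. Genes listed more than once in the TPM files (16 to 24 identifiers per library) were summed. The TPM values were used for levels and the counts for tests. Counts per library ranged from 8667177 to 17243712, reads carry no molecular identifiers, and the floor of 3 counts covers counting error only.

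Comparisons were fitted in R 4.3.3 with edgeR 4.0.16 (filterByExpr, TMM, robust quasi-likelihood F-test) on the libraries compared, or on the 24 vehicle libraries with terms for sex, diet and, for the interaction, their product. Genes were adjusted over all genes tested by Benjamini-Hochberg. The study used DESeq2, here an alternative (1.42.0). Genes were compared singly by a two-sided exact permutation test of log2 CPM (prior count 2) over 924 splits. A marker score is the mean log2 CPM of the marker genes with a mean over 0.1 CPM, and correlations used 100000 permutations within groups. A gene with a median under 10 counts was called too low to compare. TPM was tested with limma 3.58.1 on log2(TPM + 0.1) and log2(TPM + 1), for genes with a mean of at least 0.1 TPM.

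By rule, a cytokine gene's fold change was given where its unadjusted p-value was under 0.05, and of the other lists at most 3 genes per comparison, those with the smallest p-values past the study's threshold. Other fold changes of the cytokine genes are given for completeness, outside this rule. Closest genes were sought for cytokine genes with a median of at least 30 counts. The 259 genes of 21 lists were all matched by name. The genes and lists were chosen with earlier results of these data known. The removal of the squamous libraries (score over 1) and the other settings of the exact Il1b test were chosen after seeing the data. The edgeR test was tried on simulated counts before use. Alternatives also included no filter, at least 10 counts in every library, DESeq2 size factors, all libraries in 1 fit, 4 marker scores as covariates, the replicate number as a block, and each library left out. The replicate numbers come from the sample titles, and what they stand for is not given. In no comparison did all 6 pairs of same-numbered animals correlate over 0.1. For sex on CD, diet in males and E2, however, 4 of 6 animals correlated best with their own number. Whether the numbers mark a batch was not tested. No protein sequences were used here.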

Additional observations from a re-analysis of the deposited data

Results flagged for a closer look

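In 6 cases a value stood apart from the other 5 animals of their group, by the gap to the nearest animal as a share of the whole range (Dixon's 95% limit). For 39 combinations of gene and group examined, chance alone would flag about 1 in 20 if the values followed a normal distribution. Whether the TPM values do was not tested, so the number of cases is not set against chance. Il1b was 4.38 TPM in replicate 2 of the HFD males, where the next animal had 0.890 TPM, and this library holds squamous epithelium. Il1b was 1.21 TPM in replicate 2 of the HFD+E2 males, where the next had 0.205 TPM. Il18 was 132 TPM in replicate 1 of the CD males (next 67.1), 101 TPM in replicate 2 of the HFD females (next 64.7) and 126 TPM in replicate 1 of the HFD+E2 males (next 76.0). Tgfb1 was 0.882 TPM in replicate 5 of the HFD females, below the next at 1.92 TPM. By counts this animal was not the lowest of its group, at 18 counts against 12 in replicate 2, which had 2.37 TPM.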

How the results depend on the processing

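The number of cytokine genes past the adjusted threshold stayed at 0 in 80 of 87 alternative fits that kept all animals or left out the squamous libraries, and in 128 of 132 that left out 1 animal. For sex on CD it was 2 with DESeq2 (Tgfb3 and Il1b), 1 without the filter on low counts (Il1b), 1 with all 30 libraries in 1 fit (Tgfb3) and 2 with the replicate block (Tgfb3 and Il18), and it ranged from 0 to 2 when single animals were left out, with 2 on leaving out CD male 1 and 1 on leaving out CD male 6. For sex over both diets it was 1 with DESeq2 and 1 with the smooth muscle score (Il7 in both), 1 without the squamous libraries (Tgfb3), and 0 to 1 when animals were left out, with 1 without replicate 2 (Il1b) and 1 without replicate 6 (Il7) of the HFD males. The cause of these changes was not tested, except that leaving out the filter lets Il1b be tested at all. The replicate block changed no other count of calls. For sex on CD, 5 of 6 same-numbered pairs correlated over 0.1 (from -0.14 to 0.51), and 4 of 6 animals correlated best with their own number. The latter was also 4 of 6 for diet in males and for E2, but 1 for sex on HFD and 0 for diet in females. Whether the numbers mark a shared batch was not tested, so calls with the block are given only as an alternative. Of 125 alternative values of the 10 fold changes with an unadjusted p-value under 0.05, 94 kept direction and threshold, 28 kept the direction only and 3 reversed. Reversed were Il18 for sex on CD with the smooth muscle score (-0.01), and Il1b for diet over both sexes with the squamous score (-0.20) and without the squamous libraries (-0.15). Leaving out replicate 1 of the HFD females (1.02) or replicate 2 of the HFD males (0.77) raised the unadjusted p-value of Il1b above 0.05, and leaving out replicate 5 of the HFD females did so for Tnf (0.57). The exact test of Il1b for sex on CD kept a p-value under 0.05 on both TPM scales (0.0368 and 0.0195) and without any 1 animal (up to 0.00866). Depth limits Il6, Il10, Il1b, Tnf and Tgfb1 most.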
